A study of Bos taurus with 18 samples.

Results

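The 7 chemokine genes measured in bovine milk cells and described here are the 6 CC chemokines CCL2, CCL3, CCL4, CCL5, CCL8 and CCL20 and the CXC chemokine CXCL10. They were found as the probe sets whose gene symbol in the platform annotation is exactly 1 of those 7 names. This gave 10 probe sets for 7 of the 9155 genes named on the array: 3 for CCL3, 2 for CCL2 and 1 for each of the other members. Where a gene had several, the brightest on average across the 18 arrays stands for it, and the others are given beside it.

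The values come from Affymetrix bovine genome arrays, with 1 array for each of 18 dairy cows. The study set cows with mastitis and cows with endometritis against healthy cows, with 6 animals in each group, to find genes whose expression differs. Healthy cows had an unremarkable udder, a milk cell count below 100000 per ml and an age of 2 to 4 years, and most were sampled 10 to 100 days after calving. Cows with mastitis, an inflammation of the udder, and cows with endometritis, in which the uterine lining is inflamed, were sampled 10 to 220 days after calving, and no age is given for them. Lactations 1 to 8 are given for every group, which cannot hold for a cow of at most 4 years, so the ages are in doubt. Animals came from farms and clinics, and neither the microbe nor the severity of the mastitis is given in the labels. Age, stage of lactation and disease cannot be told apart from the labels. Each array is a different cow, so the p-values measure the spread between animals.

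Chemokines are small secreted proteins that bind to G protein-coupled receptors on leukocytes and direct their movement along a gradient. CC chemokines act mainly on monocytes, macrophages, dendritic cells and lymphocytes, whereas CXCL10 is induced by interferons and attracts activated T cells and NK cells through CXCR3. In the udder, resident macrophages and epithelial cells are among the sources of chemokines, and milk holds the cells that have crossed into it. CCL2, CCL3, CCL4, CCL5 and CCL8 lie on the same chromosome in RefSeq's ARS-UCD2.0 annotation, where CCL11 is the only protein-coding gene between CCL8 and CCL2. CXCL10 lies next to CXCL11 on another chromosome, and CCL20 lies apart from both groups.

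All values are log2 of normalised intensity, on which the median of all probe sets and arrays, used here as the background level, was 2.55 and the highest value 14.2. Markers of the cell types were not equal between the groups. The mean of 10 neutrophil markers ran from 4.56 to 6.56 on healthy, from 8.37 to 9.88 on mastitis and from 4.05 to 6.74 on endometritis arrays, with 9 of 10 markers called higher in mastitis against healthy. The mean of 8 mammary secretory markers ran from 11.85 to 13.07, from 5.46 to 9.61 and from 10.46 to 13.13 in the same order, with 8 of 8 called lower in mastitis. Of 8 macrophage markers 0 were called higher and 1, LPL, lower, at the probe sets that stand for them. Their means ran from 4.99 to 7.39, 6.02 to 8.00 and 5.22 to 8.30. LPL, which is part of these means, averaged 9.99 on healthy, 7.45 on mastitis and 10.26 on endometritis arrays. Among all probe sets of a gene, 1 of 2 for CD14 and 1 of 3 for MSR1 were called in mastitis against healthy. Of 12 T cell markers 0 were called, and CD4 was at background on every array. Of 6 NK and cytotoxic markers 2 were called higher in mastitis against healthy, the granule protein GNLY and the receptor NCR1. NCR1 was at background on every healthy and endometritis array and reached only 2.87 in mastitis. The list means ran from 2.66 to 3.51, 2.66 to 4.62 and 2.66 to 4.04 in the same order of groups. In such mixed cells, a change in the share of a cell type and a change in RNA per cell cannot be told apart.

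Among the arrays, healthy 3 and endometritis 3 had the narrowest spread of values (SD 1.57 and 1.56). The GAPDH control difference, 3′ minus 5′, where a larger value goes with less intact RNA, was 0.88 ± 0.40 (SD, n = 6) on healthy, 0.39 ± 0.23 on mastitis and 0.58 ± 0.25 on endometritis arrays. The spiked-in dap controls averaged 7.32 ± 0.86, 5.94 ± 0.42 and 6.85 ± 0.80.

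Against healthy cows, CXCL10 and CCL20 rose in mastitis, and the other 5 genes did not pass. With limma's two-sided test and an adjusted p under 0.05, 2 of the 7 members were called higher and 0 lower, where 11.3% of the 9155 named genes were called higher and 15.8% lower. All 7 differences were above 0, with a median of 1.87, against a median of -0.01 over all genes. For 7 genes a count of 2 is close to that background and is not read as particular to them. Healthy and mastitis cows overlapped in each of the 7 genes, while over all genes 6.93% had every mastitis array above every healthy one and 9.7% had every one below.

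Against cows with endometritis, 4 of 7 members were higher in mastitis, CXCL10, CCL20, CCL3 and CCL4, and 0 were lower. The background of this comparison was 9.14% higher and 10.9% lower. The median of the members was 2.71, against -0.01 over all genes. In each of the 7 genes the groups overlapped here too, while over all genes 5.01% were separated upward and 5.96% downward. The mastitis arrays are the same in both comparisons, so these results are not independent. Between endometritis and healthy cows, 0 of 7 members passed in limma, and 0% of all genes passed in either direction. Groups that did not overlap were found in 0 of 7 members, against 0.0546% of all genes upward and 0.24% downward. At an unadjusted p under 0.05, 1 member, CCL4, and 1047 of 24016 probe sets passed. Of the 7 members 2 lay above 0 and 5 below, with a median of -0.62.

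The same calls were made without healthy 3 and endometritis 3, the arrays of narrowest spread. CXCL10 and CCL20 then rose by 2.93 ± 0.76 and 2.16 ± 0.66 (SE, n = 6 and 5) against healthy, with limma adjusted p = 0.0171 and 0.0375. Against endometritis CXCL10, CCL20, CCL3 and CCL4 rose by 2.90, 2.71, 2.75 and 2.14 (limma adjusted p = 0.0268, 0.0185, 0.024 and 0.0419), and 0 of 7 members passed between endometritis and healthy.

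**Figure D1:**
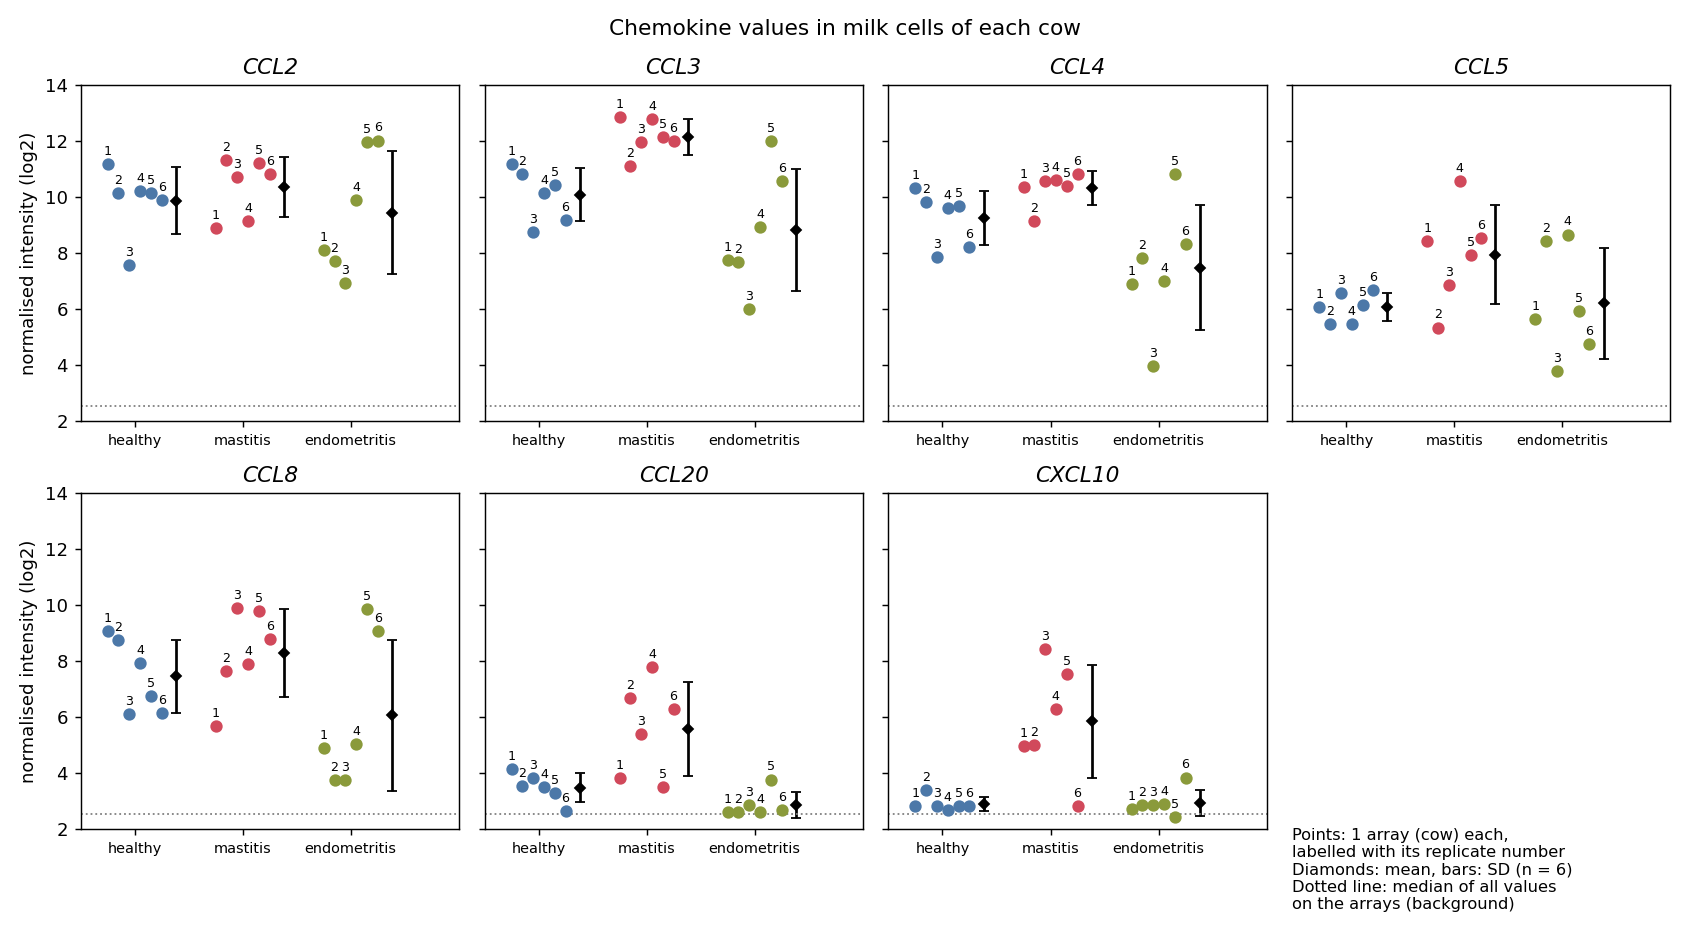
Normalised intensity (log2, vertical axis) of each chemokine on each array, by group, with the replicate number beside each point, the mean as a diamond and the SD as a bar (n = 6). CXCL10 is near the dotted background line on healthy and endometritis arrays and reaches 8.43 in mastitis, whereas CCL2, CCL3, CCL4 and CCL8 are far above that line in healthy cows too.

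**Figure D2:**
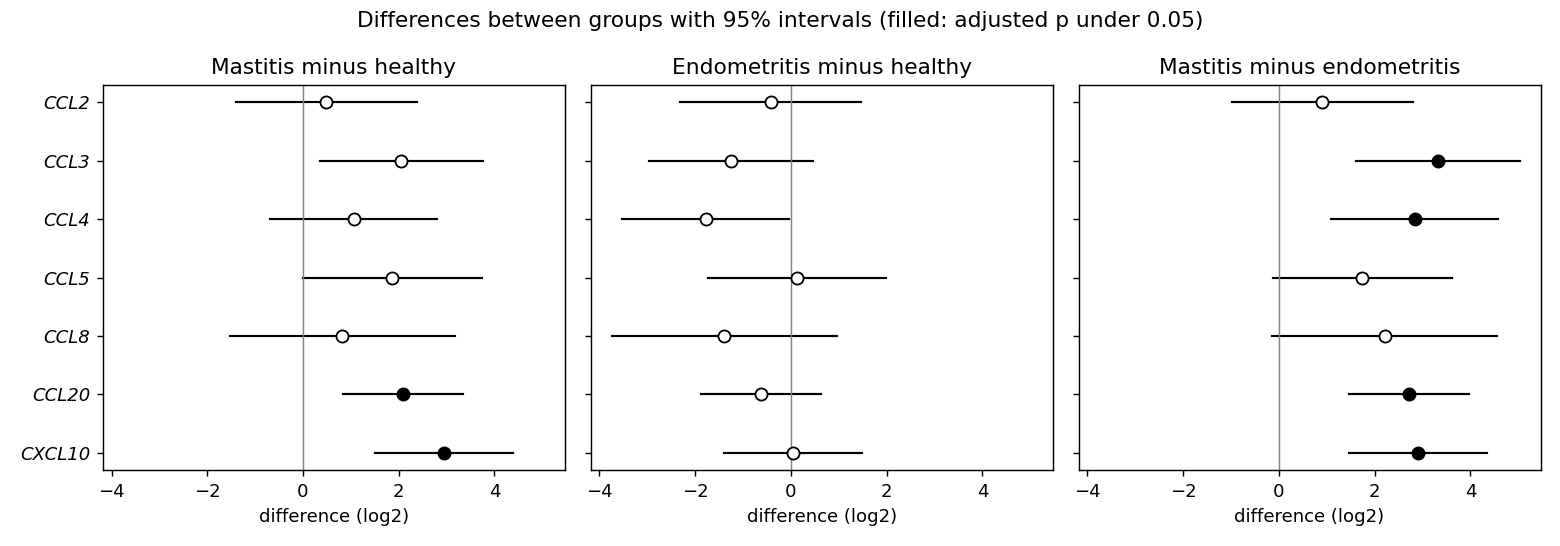
Difference between group means (log2, horizontal axis) with 95% intervals from limma for each of the 7 chemokines, filled where the adjusted p is under 0.05. CXCL10 and CCL20 are filled against healthy, 4 genes are filled against endometritis, and none is filled between endometritis and healthy.

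CXCL10, the interferon-induced ligand of CXCR3, was read by a single probe set. Healthy arrays read 2.70 at the lowest, 2.83 at the median and 3.40 at the highest, and endometritis arrays 2.45, 2.87 and 3.85. Mastitis arrays read 2.85, 5.66 and 8.43. In cows without mastitis CXCL10 was thus close to background, and 5 of 6 mastitis arrays were above the highest healthy and the highest endometritis array. Mastitis 3 and mastitis 5 were the highest, at 8.43 and 7.53, followed by mastitis 4 at 6.29, mastitis 2 at 5.03 and mastitis 1 at 4.99. Mastitis 6, at 2.85, lay inside the healthy range.

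The rise of CXCL10 in mastitis was 2.95 ± 0.68 (SE, n = 6 and 6) against healthy, 7.71-fold, with a limma adjusted p of 0.00594 and a 95% interval of 1.50 to 4.39. Against endometritis it was 2.91 ± 0.68, 7.52-fold (limma adjusted p = 0.00875). Healthy and endometritis means differed by 0.04, with an interval of -1.41 to 1.48 (limma adjusted p = 1). That interval uses the spread of every group, and the SD of CXCL10 was 0.25 in healthy, 2.00 in mastitis and 0.48 in endometritis cows. The rise is thus seen against both other groups, and the cows with mastitis differed widely in its size. With single arrays left out the rise ran from 2.43 to 3.55 against healthy and from 2.40 to 3.51 against endometritis, and was highest without mastitis 6, the array at the healthy level. After the GAPDH difference was added as a covariate, the rise against healthy was 2.92 and did not pass (limma adjusted p = 0.0621).

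CCL20 attracts cells that carry CCR6, such as immature dendritic cells and some T cells, and epithelia make it when inflamed. Its probe set read 2.66, 3.53 and 4.14 (lowest, median, highest) on healthy arrays, 3.52, 5.84 and 7.78 on mastitis arrays and 2.63, 2.66 and 3.78 on endometritis arrays. Mastitis 4, mastitis 2 and mastitis 6 were the highest, at 7.78, 6.70 and 6.29, and mastitis 3 read 5.40. Mastitis 1 and mastitis 5 lay within the healthy range, at 3.83 and 3.52. On 3 endometritis arrays the probe set stood at the same lowest value, 2.63, below which it may not resolve differences.

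CCL20 rose by 2.09 ± 0.59 (SE, n = 6 and 6) in mastitis against healthy, 4.26-fold (limma adjusted p = 0.0194, interval 0.84 to 3.34), and was above the healthy mean on 6 of 6 arrays. Against endometritis it rose by 2.71 ± 0.59, 6.56-fold (limma adjusted p = 0.0058), and 5 of 6 mastitis arrays were above the highest endometritis array. Endometritis minus healthy was -0.62 ± 0.59 and did not pass (limma adjusted p = 0.925). That SE uses the spread of every group, and the SD of CCL20 was 0.50 in healthy, 1.67 in mastitis and 0.45 in endometritis cows. By exact permutation of the 2 groups alone, without adjustment, p was 0.0498. The call against healthy was lost in a fit of the 12 arrays of those groups alone (2.09, limma adjusted p = 0.0646) and with the GAPDH covariate (2.46, limma adjusted p = 0.0636).

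The cows in which CCL20 was highest were not those in which CXCL10 was highest. Mastitis 6 had CCL20 at 6.29 and CXCL10 at 2.85, while mastitis 5 had CCL20 at 3.52 and CXCL10 at 7.53. Mastitis 2, mastitis 3 and mastitis 4 were more than 1 log2 unit above the highest healthy array in both genes.

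CCL3 and CCL4, also called MIP-1 alpha and MIP-1 beta, attract macrophages, NK cells and T cells. The brightest CCL3 probe set read 8.74, 10.29 and 11.18 (lowest, median, highest) on healthy arrays and 11.09, 12.07 and 12.85 on mastitis arrays. On endometritis arrays it read 6.00, 8.33 and 12.01. Mastitis and healthy arrays overlapped by a narrow margin, with 5 of 6 mastitis arrays above the highest healthy one. Endometritis arrays covered a wide range, from below all healthy arrays to within the mastitis range.

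CCL3 was 2.06 ± 0.80 (SE, n = 6 and 6) higher in mastitis than in healthy cows, 4.16-fold, and did not pass (limma adjusted p = 0.0907, interval 0.35 to 3.77). It passed in a fit of those 12 arrays alone (adjusted p = 0.0119), with dim probe sets left out (adjusted p = 0.0408), and when endometritis 3 or endometritis 5 was left out (lowest adjusted p 0.036). The difference from healthy cows thus lay near the threshold. Against endometritis CCL3 rose by 3.32 ± 0.80, 9.96-fold (limma adjusted p = 0.011), and 6 of 6 mastitis arrays were above the endometritis mean. That rise was 3.95 without endometritis 5. Endometritis minus healthy was -1.26 ± 0.80 (limma adjusted p = 0.925).

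Another CCL3 probe set, designed on the same transcript record, gave 2.11 against healthy (limma adjusted p = 0.0942) and 3.37 against endometritis (limma adjusted p = 0.0123). The dimmest of the 3, designed on another record, stood at the floor of 2.43 on 17 of 18 arrays and at 2.49 on mastitis 1, and so has no measurable difference. In RefSeq's annotation CCL3 and CCL4 are separated by 1 unnamed protein-coding locus and flanked by others. Whether their probe sets also read such loci was not tested.

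CCL4 was read by 1 probe set, at 7.87, 9.64 and 10.33 on healthy arrays, 9.15, 10.49 and 10.83 on mastitis arrays and 3.98, 7.41 and 10.83 on endometritis arrays. The mastitis arrays lay close together except mastitis 2, the lowest at 9.15. Endometritis 3 was far below all other arrays, at 3.98, and endometritis 5 was as high as the highest mastitis array. CCL4 was 1.06 ± 0.82 (SE, n = 6 and 6) higher in mastitis than in healthy cows and did not pass (limma adjusted p = 0.441, interval -0.68 to 2.81).

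Against endometritis CCL4 rose by 2.84 ± 0.82, 7.17-fold (limma adjusted p = 0.0283), with 6 of 6 mastitis arrays above the endometritis mean and 0 above the highest endometritis array. This call was lost in the fit of those 12 arrays alone, with the GAPDH covariate and with the title number as a block (adjusted p = 0.0771, 0.062 and 0.0537), and without mastitis 1, mastitis 4, mastitis 6, endometritis 1 or endometritis 4 (highest adjusted p 0.0627). The difference was 2.14 without endometritis 3 and 3.51 without endometritis 5. It was still called in each of these last 2 fits. The call thus lay near the threshold, and it turned on which array was left out. Endometritis minus healthy was -1.78 ± 0.82, with an unadjusted p of 0.0461 and an adjusted p of 0.925 in limma, and 4 of 6 endometritis arrays were below the lowest healthy array.

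CCL5, or RANTES, attracts T cells, monocytes and eosinophils, and T cells and NK cells make it. Its probe set read 5.48, 6.13 and 6.69 on healthy arrays, a range far narrower than in the other groups. Mastitis arrays read 5.35, 8.18 and 10.57, and endometritis arrays 3.79, 5.79 and 8.67. Mastitis 4 was the highest of all at 10.57, and 5 of 6 mastitis arrays were above the highest healthy one, while mastitis 2, at 5.35, was below the lowest. In endometritis the arrays split, with endometritis 2 and endometritis 4 at 8.44 and 8.67 and the others at 5.93 or less.

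The difference of CCL5 between mastitis and healthy cows was 1.87 ± 0.88 (SE, n = 6 and 6), 3.65-fold, and did not pass (limma adjusted p = 0.17, interval 7.46e-05 to 3.73). Mastitis minus endometritis was 1.74 ± 0.88 (limma adjusted p = 0.232, interval -0.13 to 3.61), and endometritis minus healthy 0.13 ± 0.88 (limma adjusted p = 1). The spread of CCL5 between cows was wider in both diseased groups than in healthy cows, a difference that was not tested. The SD of CCL5 was 0.52 in healthy, 1.75 in mastitis and 1.97 in endometritis cows. The T cell marker mean was 5.08 and 5.53 on endometritis 2 and endometritis 4, against 3.31 to 3.61 on the other endometritis arrays. On mastitis 4 it was 3.55, near the mastitis median of 3.61. The part of T cells in the CCL5 values was not tested.

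CCL2 and CCL8, monocyte chemoattractant proteins 1 and 2, attract monocytes through CCR2 and related receptors. Neither passed in any of the 3 comparisons. The brighter CCL2 probe set read 7.59, 10.14 and 11.16 on healthy, 8.88, 10.77 and 11.34 on mastitis and 6.93, 9.02 and 12.02 on endometritis arrays. The highest CCL2 values of all were those of endometritis 6 and endometritis 5, at 12.02 and 11.95, and the lowest were those of endometritis 3 and healthy 3, at 6.93 and 7.59.

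Mastitis minus healthy was 0.49 ± 0.89 for CCL2 (SE, n = 6 and 6, limma adjusted p = 0.782, interval -1.40 to 2.38), which does not show that the levels were equal. Endometritis minus healthy was -0.42 ± 0.89 (limma adjusted p = 1) and mastitis minus endometritis 0.91 ± 0.89 (limma adjusted p = 0.565). The other CCL2 probe set gave 1.01, -0.28 and 1.29 for these 3 comparisons, and 0 of them passed.

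CCL8 stood at 6.10, 7.36 and 9.07 on healthy, 5.70, 8.35 and 9.90 on mastitis and 3.77, 4.98 and 9.87 on endometritis arrays. Its spread in endometritis, an SD of 2.70, was the widest among the probe sets that stand for the 7 genes. Endometritis 5 and endometritis 6 were high, at 9.87 and 9.06, and the other 4 were below the lowest healthy array, between 3.77 and 5.05. No comparison passed for CCL8. Mastitis minus healthy was 0.82 ± 1.11 (SE, n = 6 and 6, limma adjusted p = 0.678), endometritis minus healthy -1.40 ± 1.11 (adjusted p = 0.925) and mastitis minus endometritis 2.21 ± 1.11 (adjusted p = 0.227, interval -0.14 to 4.57).

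The mean levels ran in the order mastitis, healthy, endometritis for 5 of the 7 genes, CCL2, CCL3, CCL4, CCL8 and CCL20, and in the order mastitis, endometritis, healthy for CCL5 and CXCL10. Of the steps between neighbours in these orders, the step from mastitis to healthy in CCL20 and that from mastitis to endometritis in CXCL10 passed.

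The endometritis cows differed from each other in CCL2, CCL3, CCL4 and CCL8. In CCL3, endometritis 5 read 12.01 and endometritis 6 read 10.58, and endometritis 1 to 4 read 7.74, 7.70, 6.00 and 8.93. The same pair was highest in CCL2, CCL4 and CCL8. The macrophage marker mean was 8.30 and 7.48 on endometritis 5 and endometritis 6, against 6.28, 5.95, 5.22 and 6.36 on the other 4, and the mean of 6 epithelial markers was 3.47 and 4.25, against 5.96, 4.91, 5.97 and 4.40. Endometritis 3, lowest in each of the 4 genes (tied with endometritis 2 in CCL8), also had the narrowest spread of values of all arrays. The part of macrophages, epithelial cells or array quality in these values was not tested.

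**Figure D3:**
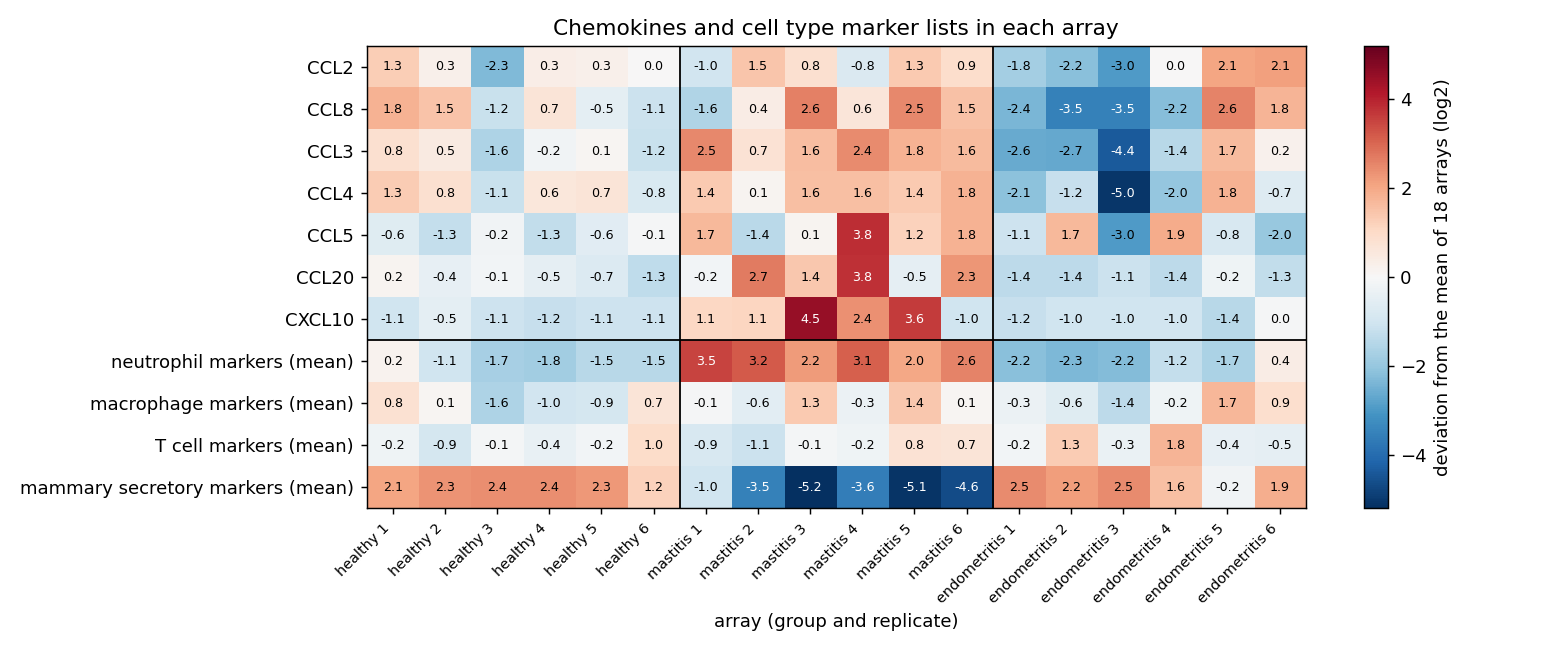
Each cell shows how far a gene, or the mean of a marker list, lies on 1 array from its own mean over 18 arrays (log2 colour scale, arrays in columns by group). CCL2, CCL8, CCL3 and CCL4 are below their means on endometritis 1 to 3 and CCL2, CCL8 and CCL3 above them on endometritis 5 and 6, while CXCL10 is above its mean on mastitis 1 to 5.

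How the 7 genes varied together was described by correlating their deviations from the group means over the 18 arrays. These arrays share the authors' normalisation and differ in quality, so the coefficients are descriptions. CCL3 and CCL4 had a Pearson r of 0.91 (Spearman rho 0.78), and 0.77 without the 2 arrays farthest from the median of CCL3. CCL2 and CCL8 had 0.85 (rho 0.83), and 0.85 without the 2 farthest arrays. Between these pairs r ran from 0.68 to 0.75, and from 0.50 to 0.62 without the 2 farthest arrays. The lowest of them, CCL2 with CCL4, was 0.48 without healthy 3 and endometritis 3. Over the 18 arrays together, CCL2, CCL3, CCL4 and CCL8 thus tended to deviate in the same direction, most closely within the pairs. In each of these genes the endometritis arrays had the widest spread. Within mastitis CCL2 and CCL3 did not run together. CCL2 was highest on mastitis 2 (11.34) and lowest on mastitis 1 (8.88), while CCL3 was highest on mastitis 1 (12.85) and lowest on mastitis 2 (11.09). Over the 18 arrays, r of CCL5, CCL20 and CXCL10 with the other genes ran from -0.27 to 0.29. Without healthy 3 and endometritis 3, however, CCL5 had r of -0.55 with CCL2 and -0.46 with CCL8.

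The marker lists showed a similar division. Macrophage markers had r of 0.74 with CCL2, 0.77 with CCL8, 0.67 with CCL3 and 0.66 with CCL4, and 0.65, 0.66, 0.50 and 0.48 without the 2 farthest arrays. Epithelial markers had r of -0.79, -0.59, -0.72 and -0.68 with the same genes. Without the 2 farthest arrays these were -0.67, -0.31, -0.39 and -0.22, so the last 3 rest largely on those arrays. CCL5 had r of 0.67 with T cell and 0.60 with NK and cytotoxic markers (0.60 and 0.54 without the 2 farthest arrays). CCL20 had r of -0.53 with B and plasma cell markers (-0.13 without the 2 farthest arrays) and of 0.28 or less in size with the other 6 lists, with macrophage markers at -0.20, and -0.46 without the 2 farthest arrays. CXCL10 had its largest r, 0.36, with macrophage markers (0.51 without the 2 farthest arrays).

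**Figure D4:**
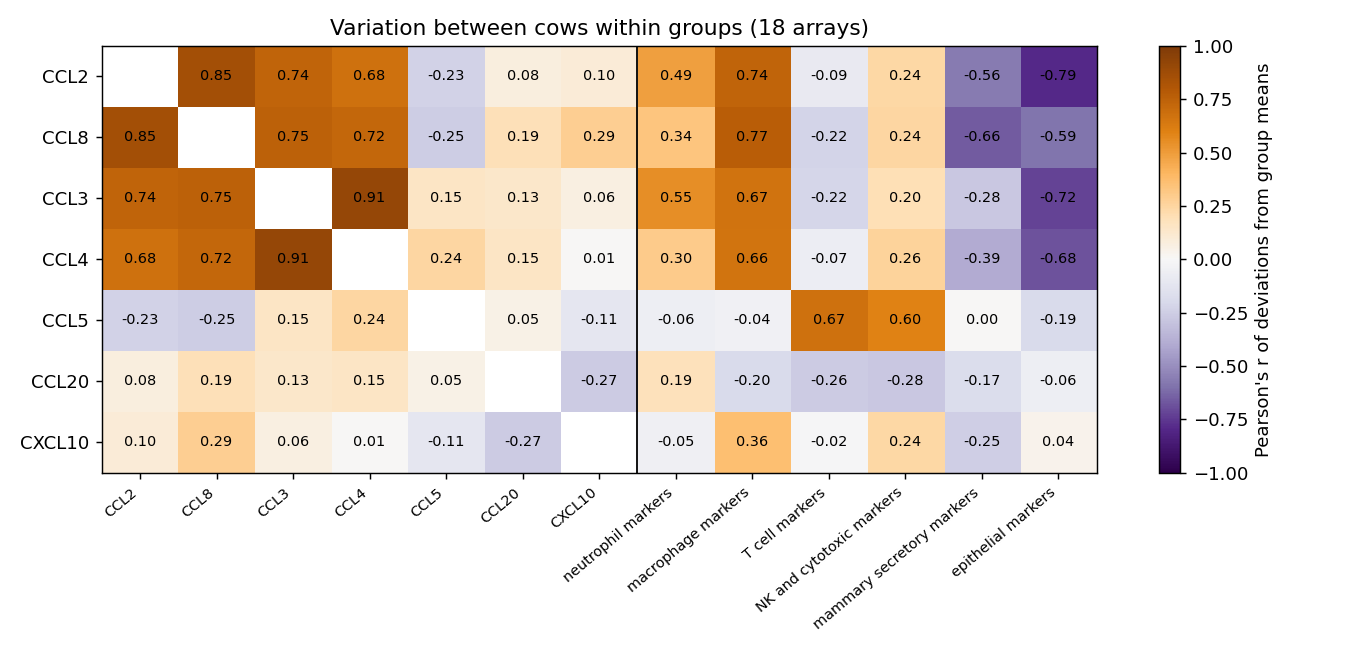
Pearson's r of the deviations from group means over 18 arrays, between the 7 chemokines (left) and between each chemokine and the mean of 6 marker lists (right). CCL2, CCL8, CCL3 and CCL4 form a block with r from 0.68 to 0.91, and CCL5 has its highest value, 0.67, with T cell markers.

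Genes whose deviations were most like those of each member were taken from 6402 named genes above background on at least 6 arrays. For CCL3 they were CCL4 (r = 0.91), the NF-kappaB inhibitor NFKBIA (0.89) and pleckstrin, PLEK (0.87). For CCL4 they were CCL3, the stress-induced transcription factor ATF3 (0.83, and 0.32 without the 2 farthest arrays) and NFKBIA (0.83). For CCL8 they were the cytokine IL1A (r = 0.89), PPIL3 (0.89) and DCTN5 (0.88), and for CCL2 the creatine kinase CKM (0.91), the semaphorin receptor NRP1 (0.90) and RGL1 (0.90).

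For CCL5 the closest was ODC1, ornithine decarboxylase, at r = 0.93 and rho = 0.94, followed by TOMM34 and TOPORS at 0.88 each. For CCL20 they were SLC13A3 (0.90), PHF12 (0.87, but a rho of 0.35) and LIG4 (0.86). For CXCL10 they were ENO3 (0.85), KYAT3 (0.85) and LAP3, leucine aminopeptidase (0.82), with rho of 0.60, 0.48 and 0.62. The highest of 6402 coefficients over 18 arrays are high in part because they were picked.

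Among the 16 other chemokine ligands measured, limma called 0 higher and 3 lower at the probe set that stands for the gene, beside 11.3% higher and 15.8% lower over all genes, and the median was -0.01 as over all genes. The count of lower ligands is thus near the background. CXCL16, the ligand of CXCR6, was 1.02 higher without passing (limma adjusted p = 0.277), and its other probe set rose by 1.77 ± 0.55 (SE, n = 6 and 6, limma adjusted p = 0.0343). CXCL11, which binds the same receptor as CXCL10 and lies beside it in the genome, read 3.18, 4.97 and 5.98 on healthy arrays and 2.44, 3.07 and 3.66 on mastitis arrays. It fell by 1.72 ± 0.49 (SE, n = 6 and 6, limma adjusted p = 0.0194). On mastitis 3 and mastitis 5, where CXCL10 was highest, CXCL11 read 3.66 and 3.11. Its call was lost with the GAPDH covariate (-1.15, limma adjusted p = 0.307) and without healthy 3 and endometritis 3 (-1.55, limma adjusted p = 0.0558).

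CCL26 and CCL25, ligands of CCR3 and of the gut-homing receptor CCR9, were the others that fell in mastitis. CCL26 read 3.46, 6.11 and 6.77 on healthy and 2.87, 3.15 and 3.25 on mastitis arrays, with no overlap, and fell by 2.52 ± 0.55 (limma adjusted p = 0.00441). The mastitis arrays were all low and close together. The call was lost with the GAPDH covariate (-1.42, limma adjusted p = 0.127). CCL25 fell by 1.84 ± 0.33 (limma adjusted p = 0.00109, at 1 of 3 probe sets), also without overlap. CCL28, a mucosal chemokine of epithelia, was at -1.18 and did not pass (limma adjusted p = 0.116). The epithelial marker mean ran from 4.45 to 6.00 on healthy and from 2.59 to 3.05 on mastitis arrays, and its part in these falls was not tested. CCL11, the gene between CCL8 and CCL2, was at background on all healthy and endometritis arrays and reached 2.60 on mastitis 1.

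Against endometritis, 1 of the 16 ligands was called, CCL25, which fell by 1.14 (limma adjusted p = 0.0282). That call was lost without mastitis 1, mastitis 2, mastitis 4, mastitis 6, endometritis 1 or endometritis 3 (highest adjusted p 0.0689). Between endometritis and healthy 0 of 16 passed.

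Of 11 chemokine receptors measured under the listed names, 0 were called in any of the 3 comparisons. Some of these were at background on every array, where no change could be read. CXCR1, a neutrophil receptor of interleukin 8 that is counted here with the neutrophil markers and not in this list, rose by 5.51 ± 0.84 in mastitis (limma adjusted p = 0.000365). CXCR3, the receptor of CXCL10 and CXCL11, read between 2.49 and 2.87 on all 18 arrays, close to background. CXCR4, the CXCL12 receptor of most leukocytes, read 7.03, 7.90 and 9.43 on healthy and 8.69, 9.30 and 12.53 on mastitis arrays, a difference of 1.78 ± 0.77 (SE, n = 6 and 6) that did not pass (limma adjusted p = 0.131). CXCR6, the CXCL16 receptor of T cells and NK cells, differed by 1.62 ± 0.72 (limma adjusted p = 0.143) and passed with array weights (2.43, limma adjusted p = 0.0183). ACKR3 was at 0.14 (limma adjusted p = 0.349). CCR1, CCR2 and CCR6, receptors of some of these CC chemokines, were not analysed here.

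**Figure D5:**
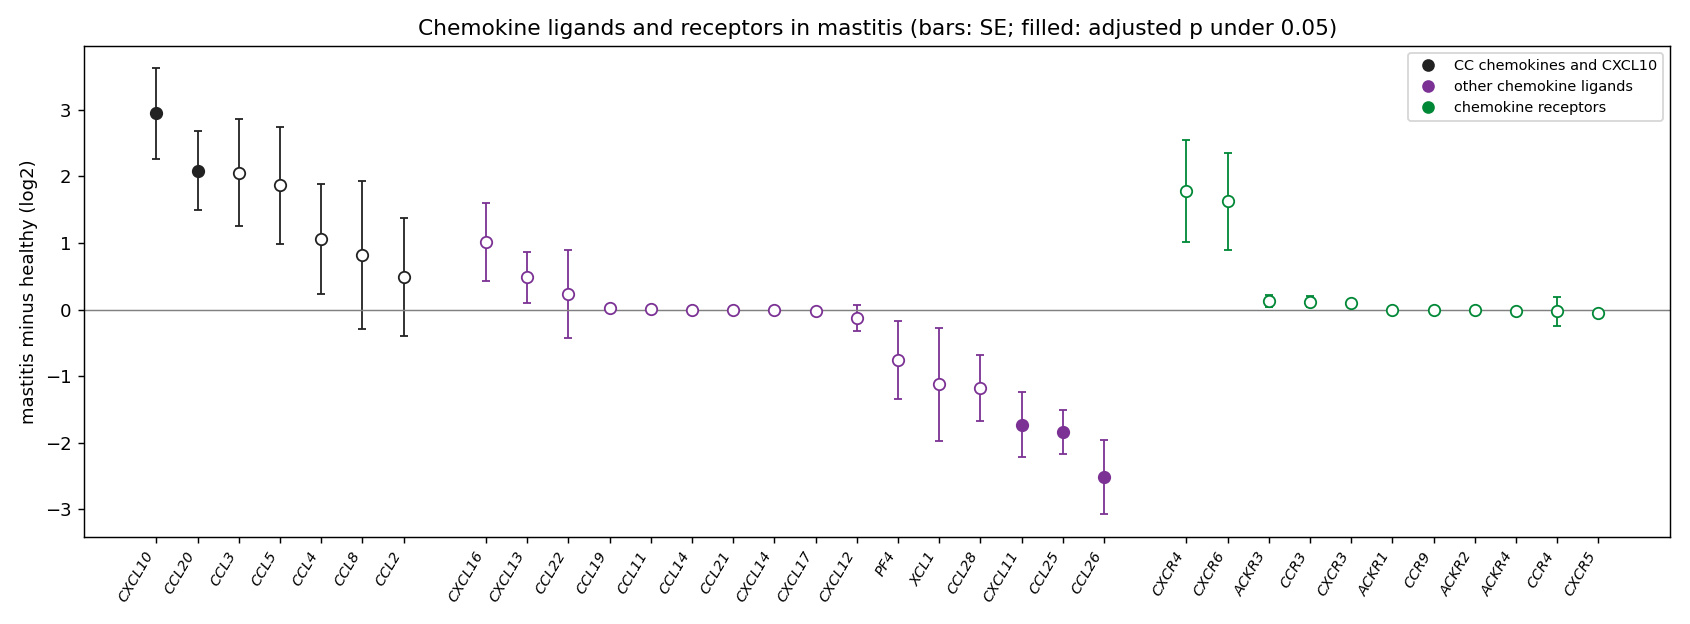
Mastitis minus healthy (log2, vertical axis) with SE for the 7 chemokines, 16 other ligands and 11 receptors, filled where limma's adjusted p is under 0.05. CXCL10 and CCL20 are filled above 0, CXCL11, CCL25 and CCL26 are filled below 0, and no receptor is filled.

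Many genes of interferon signalling, which acts on the CXCL10 promoter through STAT and IRF factors, rose in mastitis. Of 13 measured, 8 were higher, 0 lower and 5 did not pass against healthy, with a median of 1.90. The same counts were found against endometritis (median 1.98). For this list and those that follow, the values over all genes were 11.3% higher, 15.8% lower and a median of -0.01 against healthy, and 9.14%, 10.9% and -0.01 against endometritis. IRF9 and STAT2, parts of the factor ISGF3, rose by 3.64 ± 0.34 and 2.50 ± 0.30 (SE, n = 6 and 6, limma adjusted p = 1.3e-05 and 6.31e-05). The interferon receptor subunits IFNAR2 and IFNGR2 rose by 3.45 and 1.90 (limma adjusted p = 0.000218 and 0.000173, IFNGR2 at 1 of 2 probe sets). The ligand genes IFNG and IFNB1 were at 0.45 and 0.03 and did not pass (limma adjusted p = 0.585 and 1).

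Mastitis 6, the cow with CXCL10 at 2.85, read 5.95 for IRF9 and 5.14 for STAT2, above the highest healthy values of 3.37 and 3.83. Its STAT2 was the lowest of the mastitis arrays, and its IRF9 the second lowest, above mastitis 5 at 5.82, which had CXCL10 at 7.53. Against endometritis IRF9 rose by 3.41, IFNGR2 by 2.09, STAT2 by 2.16 and IRF7 by 2.79 (limma adjusted p = 2.69e-05, 0.000114, 0.000234 and 0.000325). None of the 13 genes (0 of 13) passed in endometritis against healthy.

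NF-kappaB signalling, which switches on CCL2, CCL3, CCL4, CCL5 and CCL20, had 10 of 17 genes higher, 0 lower and 7 not passing in mastitis against healthy (median 0.78), and 11 higher and 0 lower against endometritis (median 0.79). The kinase IKBKB rose by 2.93 ± 0.29, the subunit NFKB1 by 3.10 ± 0.41, the TNF receptor TNFRSF1A by 3.24 ± 0.45 and the interleukin 1 receptor chain IL1RAP by 4.19 ± 0.61 against healthy (limma adjusted p = 1.9e-05, 0.000129, 0.000194 and 0.000271, IL1RAP at 2 of 3 probe sets). Against endometritis they rose by 2.69, 2.86, 3.16 and 4.26. NFKBIA, whose deviations were among those closest to CCL3, was 2.13 higher against healthy without passing (limma adjusted p = 0.0644) and rose by 2.71 against endometritis (limma adjusted p = 0.0252). In endometritis against healthy 0 of 17 passed.

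Genes that carry the signal inside the receiving cell gave 6 of 13 higher and 1 lower in mastitis against healthy (median 0.76), and 5 higher and 0 lower against endometritis (median 0.69). The arrestin ARRB1 rose by 1.74, the kinase PTK2B by 1.60 (1 of 2 probe sets), the leukocyte GTPase RAC2 by 2.61 and the G protein subunit GNB2 by 0.90 (limma adjusted p = 0.00194, 0.00255, 0.00499 and 0.00945). GNAI1, an inhibitory G protein subunit and the member that was lower, fell by 1.74 (limma adjusted p = 0.0211). Against endometritis ARRB1, PTK2B and GNB2 rose by 1.80, 1.62 and 0.98, and the receptor kinase GRK2 by 0.60 (limma adjusted p = 0.0231, 1 of 2 probe sets), a call lost without mastitis 2, mastitis 4, mastitis 6 or endometritis 3 (adjusted p up to 0.06). With the GAPDH covariate 0 of these 13 genes passed against healthy, and the share over all genes with that covariate is not given. Of the same 13 genes 0 passed in endometritis against healthy. In these 3 lists, as among the neutrophil markers, most called genes were higher in mastitis against healthy. The ranges of the neutrophil marker mean on mastitis and healthy arrays do not overlap. The part of neutrophils in these 3 lists was not tested.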

How the data were processed

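Milk cell RNA of 18 cows was measured on Affymetrix bovine genome arrays. Per the labels' protocols, RNA was extracted with TRI reagent, only samples with an RNA integrity number above a set minimum were kept, and labelling used a 3′ IVT kit, which reads transcripts from their 3′ end. RMA, GCRMA and limma are listed in the submitters' processing notes, with neither version nor role. Not given in the sources used here are which of them made the values and on which logarithm base. The authors deposited normalised intensities that run from 2.43 to 14.2, which were read as log2 values, and every fold printed rests on that reading. Raw scanner files were not used here.

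Of 24128 probe sets, 112 controls were left out and 24016 tested. The platform annotation gave 1 symbol for 13292 of them, several for 86 and none for 10638. The symbols of 7 of 7 members matched RefSeq's ARS-UCD2.0 table by Entrez identifier. No coordinates or sequences are given, because no genome build or probe sequence was at hand.

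Groups were compared by lmFit and eBayes of limma 3.58.1 (R 4.3.3), two-sided, in 1 model with a term per group on all 18 arrays (15 residual degrees of freedom, prior 0.561), which was tested on simulated data. The SEs and intervals of a comparison therefore use the spread within every group, also within the group not compared. P-values were adjusted by Benjamini-Hochberg over the 24016 probe sets within each comparison. Dim probe sets were kept. Marker lists are given as the mean log2 value of their measured genes. For correlations, each group's mean was taken off first.

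The members and gene lists were chosen with earlier results of these data known. Named list genes are the 4 with the smallest p in mastitis against healthy and, against endometritis, the called ones among the 4 smallest. GNAI1, CCL11, CXCL16, LPL, GNLY, NCR1, CXCR1, IFNG, IFNB1 and NFKBIA as a list gene were chosen outside that rule after values were seen. Alternatives tried were the fit of 12 arrays, dim probe sets left out (kept if above 2.55 on at least 6 arrays), median centring, scaling to hybridisation controls, trended robust eBayes, array weights, the GAPDH difference as a covariate, the title number (above 120 or not) as a block, other probe sets, exact permutation tests, and each array left out. Leaving out healthy 3 and endometritis 3 was added after seeing the data. Precision is limited by having 6 arrays per group.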

Additional observations from a re-analysis of the deposited data

Results flagged for a closer look

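In 5 of the 21 groups of 6 arrays examined (7 genes in 3 groups), 1 array lay far from the others by Dixon's test, which chance gives in about 1 group in 20. CCL2 on healthy 3 was the lowest of its group at 7.592, with the nearest array at 9.913. CCL4 on mastitis 2 was the lowest at 9.148, with the nearest at 10.37. CCL20 on endometritis 5 was the highest at 3.781, with the nearest at 2.869. CXCL10 on healthy 2 was the highest at 3.403, with the nearest at 2.845, and CXCL10 on endometritis 6 was the highest at 3.853, with the nearest at 2.894.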

How the results depend on the processing

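Of the differences of the 7 genes in the 3 comparisons under other settings or at other probe sets, 203 kept their direction and their side of the threshold, 6 newly passed, 7 no longer passed and 3 changed sign. With 1 array left out these numbers were 366, 2, 5 and 5. Counts of called genes are given apart from these.

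With the GAPDH covariate, mastitis against healthy had 0 of 7 members called (CCL20 2.46 and CXCL10 2.92 no longer passed, and CCL2 was -0.083), 1 other ligand and 0 signal transduction genes. Without the covariate CCL20 was at 2.09 and CXCL10 at 2.95. Their SEs were 0.59 and 0.68 without the covariate and 0.73 and 0.87 with it. For the other settings and for arrays left out, the share of all genes called is not given, so these counts have no background beside them. In the fit of 12 arrays CCL20 (2.09) no longer passed and CCL3 (2.06) passed, as CCL3 (2.06) did with dim probe sets left out. By exact two-sided permutation, without adjustment, CCL3 (2.06), CCL4 (1.06) and CCL5 (1.87) passed, with p = 0.00433, 0.0411 and 0.0281, as did CCL20 (-0.62) between endometritis and healthy (p = 0.0498). With array weights 2 receptors were called. Between endometritis and healthy, CCL5 was -0.46 with the GAPDH covariate and CXCL10 -0.014 with median centring, and neither passed.

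Against endometritis, CCL4 lost its call in the fit of 12 arrays (2.84), with the GAPDH covariate (2.59) and with the title-number block (2.80), and the dim CCL3 probe set gave 0.0098. Other ligands called were 2 with dim probe sets left out and 0 with array weights, the GAPDH covariate or both narrow arrays left out, and receptors called were 1 with the title-number block. Signal transduction genes called were 8 with median centring and 3 with hybridisation scaling, array weights or both narrow arrays left out.

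With 1 array left out, members called ranged from 2 to 3 in mastitis against healthy, 0 to 0 in endometritis against healthy and 3 to 4 in mastitis against endometritis. CCL3 ranged from 1.79 to 2.27 against healthy. Against endometritis CCL4 ranged from 2.14 to 3.51, ligands called from 0 to 2 and transduction genes called from 3 to 7. Between endometritis and healthy CCL2 ranged from -0.93 to 0.084, CCL5 from -0.37 to 0.61 and CXCL10 from -0.15 to 0.14. Where the construction of the setting (fewer arrays or probe sets) does not show it, the cause was not tested. No paired analysis was possible because the labels give the groups no shared replicate numbers. Values near 2.55, as for CXCL10 outside mastitis and CCL20 in endometritis, are limited by background, so folds there can be understated.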
